A study of Rattus norvegicus with 9 samples.

Results

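The genes described here were 36 genes of astrocyte identity and astrocyte reactivity, out of 30507 rows in the deposited count table. They were found by their gene symbol, and each symbol stood on a single row. Of these, 10 were homeostatic genes, which resting astrocytes express, and 26 were reactive genes, which astrocytes are known to raise after injury. The libraries came from the spinal cord around T10 of wild-type female Sprague-Dawley rats, bought at 8 weeks of age and killed at 35 days after surgery (dpi), with 3 rats in each of 3 groups. The Sham group had a laminectomy only according to the study's methods, while the labels call these rats normal and untreated. The SCI group had a T10 contusion of 150 kdyn. The SCI + SCS group had the same contusion and, from 1 dpi on, daily epidural stimulation lasting 2 h, at a frequency of 10 kHz, a current of 0.12 mA and a pulse width of 30 µs. The SCI rats carried a plug without an electrode, and injured rats with a silent electrode were not analysed here, so the electrode and the current cannot be told apart. The comparisons ask how contusion left the astrocyte genes at 35 dpi, and whether stimulated rats differed from injured rats without stimulation.

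Astrocytes clear glutamate and potassium from around neurons, hold water channels at the vessels and are coupled to each other by gap junctions. After a contusion, astrocytes around the lesion take on a reactive state, in which they enlarge, build up intermediate filaments and form a border around the scar. Cytokines of the interleukin-6 family drive much of this state through the receptor chain gp130 and the transcription factor STAT3. Reactive genes have been sorted into a pan-reactive set, an A1-labelled set first described after inflammation and an A2-labelled set first described after ischemia. Many reactive genes are not restricted to astrocytes, and several are also used by macrophages, fibroblasts and vessel cells. Whether the homeostatic genes were restricted to astrocytes in this tissue was not tested.

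The tissue was whole spinal cord, so fewer cells of a type and less RNA per cell cannot be told apart. Between 62844376 and 88358570 counts were assigned to genes in each library, and the detection floor, set at 3 counts, corresponded to between 0.034 and 0.0477 CPM (counts scaled to a common library total). The makeup of the tissue differed between the groups. The summed level of 8 fibroblast markers was 511 to 2235 CPM in Sham, 3860 to 6018 CPM in SCI and 2400 to 4047 CPM in SCI + SCS rats. That of 11 microglia and macrophage markers was 527 to 606, 2543 to 3455 and 1949 to 2434 CPM, and that of 10 neuron markers was 4771 to 10592, 692 to 2406 and 2183 to 3698 CPM, respectively. That of 8 oligodendrocyte markers was 58767 to 83017, 17624 to 33082 and 30908 to 36327 CPM, in the same order. That of 8 Schwann cell markers was 4504 to 7128, 8871 to 12900 and 6878 to 14594 CPM. For 6 ependymal markers it was 47.4 to 70.7, 103 to 142 and 111 to 152 CPM. All these markers had counts. Skeletal muscle markers, 23 genes, reached 5382 CPM in SCI rat 1 and 1899 CPM in SCI rat 3, against 245 to 371 CPM in the other 7 libraries. Sham rat 1 stood apart from the other Sham rats, with the lowest fibroblast sum and the highest neuron sum of all 9 libraries.

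**Figure D1:**
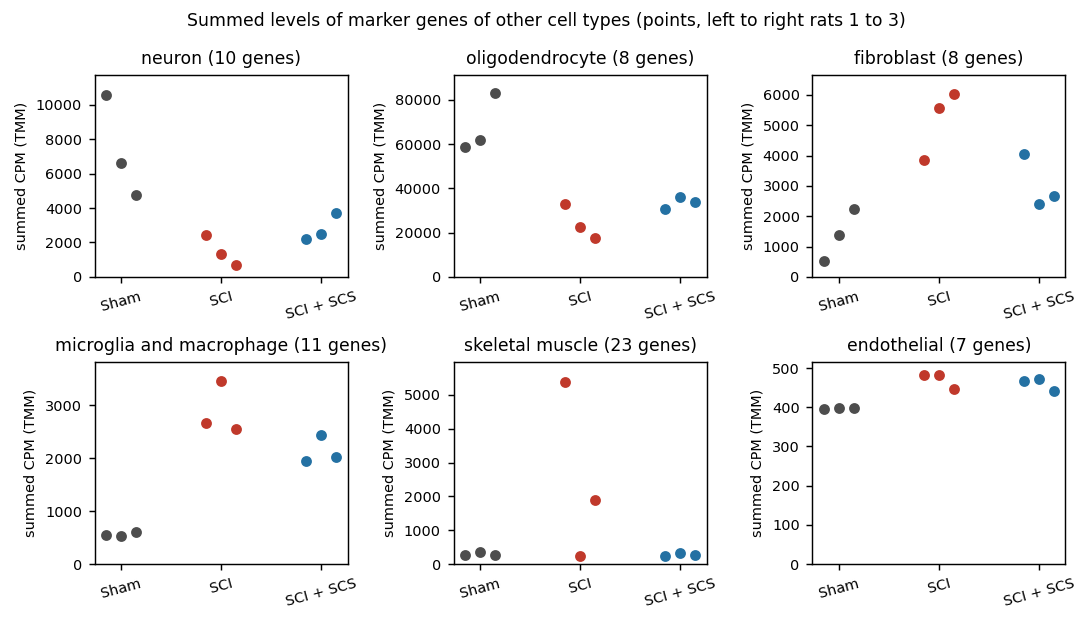
Summed CPM (vertical axes, starting at 0) of marker genes of 6 other cell types in each of the 9 rats; points are rats 1 to 3 of each group from left to right. The fibroblast and microglia and macrophage sums lie higher in every injured rat than in every Sham rat. The neuron and oligodendrocyte sums lie lower in every injured rat, and the muscle sum is high in SCI rats 1 and 3.

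In the Sham cord, the members spanned levels from abundant cytoskeletal and metabolic genes to genes near the detection limit. Compared per length of gene, as FPKM, S100b, a calcium-binding protein, was the highest at 1737 ± 301 FPKM (mean ± SD, n = 3). Gfap, the main astrocyte filament, followed at 1126 ± 481 FPKM and Aldoc, the brain aldolase, at 892 ± 105 FPKM, and both neighbouring pairs overlapped within 1 SD. Glul, glutamine synthetase, was below them at 464 ± 23.5 FPKM. In the SCI group the order at the top was Gfap at 1719 ± 257 FPKM, Vim, another intermediate filament, at 1473 ± 351 FPKM and S100b at 1293 ± 150 FPKM, and neighbours again overlapped within 1 SD. In the SCI + SCS group, Gfap was first at 2640 ± 406 FPKM, followed by S100b at 1816 ± 170 FPKM and Vim at 1087 ± 215 FPKM, with no overlap within 1 SD. At the other end, Tgm1, a transglutaminase, was at 0.077 ± 0.026 FPKM in Sham and stayed under 1 FPKM in all 3 groups.

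Serpina3n, a serine protease inhibitor of the pan-reactive set, could not be assessed. Its row had 4 counts in all, in 1 library, while 6 rows carried symbols of the Serpina3 family. Near-identical copies can share reads, and the counting could have split or discarded these, so the levels of this family are uncertain. The highest total of those rows over 9 libraries was 1151 counts. The other 35 members each had 348 or more counts over the 9 libraries and passed the filter on low counts in every comparison, so 10 homeostatic and 25 reactive genes were tested.

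**Figure D2:**
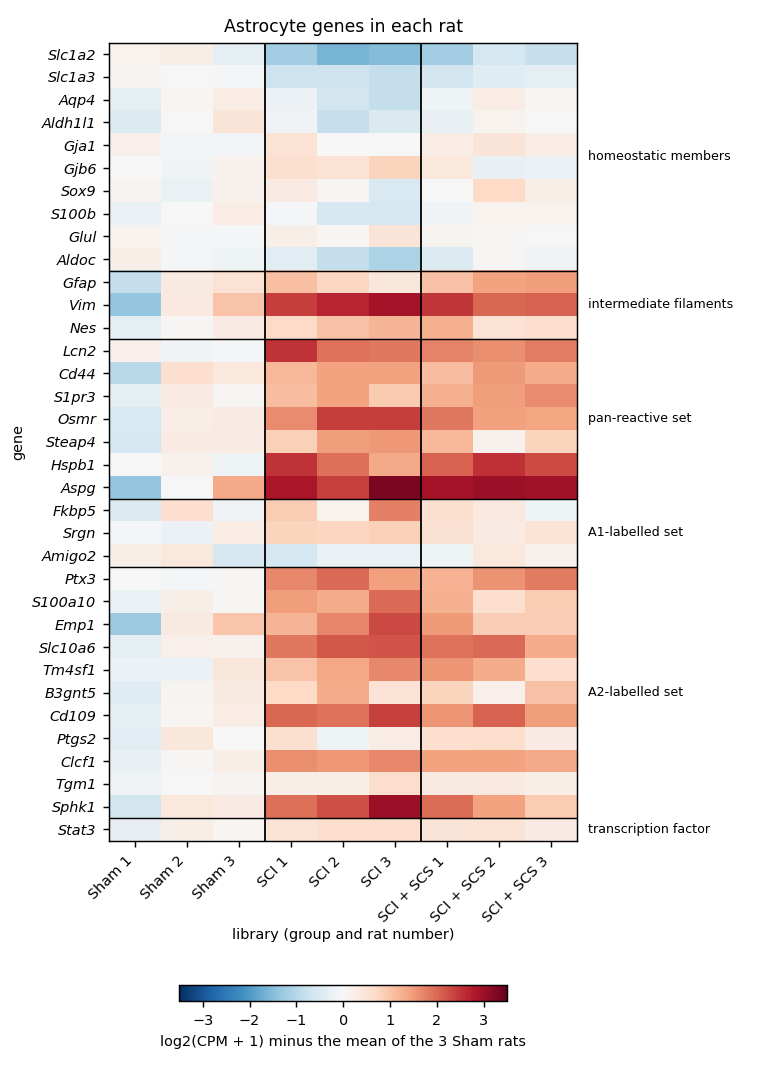
Levels of the 35 tested members (rows) in the 9 rats (columns), as log2(CPM + 1) minus the mean of the 3 Sham rats; red is higher and blue is lower. Most reactive members are red in all 6 injured rats, Sham rat 1 is the palest or bluest Sham column for most of them, and the homeostatic rows are split between blue, pale and red.

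The homeostatic genes were split in SCI rats. By edgeR's quasi-likelihood test, a gene passed at a Benjamini-Hochberg adjusted p under 0.05 over the 17822 genes tested. Of the 10 homeostatic members, 3 fell in SCI rats against Sham, namely the glutamate transporters Slc1a2 and Slc1a3 and the aldolase Aldoc, and 1 rose, the gap junction gene Gjb6. The other 6 did not pass. Among all genes tested, 25% passed lower and 24.3% passed higher, so the share that fell was near the background. Slc1a2 alone also changed by over 1 on the log2 scale, which 13.6% of all genes did in this direction. The median log2FC of the 10 genes was -0.47, against 0.02 over all genes tested. The neuron and oligodendrocyte sums of these rats moved down as well, and the part of tissue makeup in these changes was not tested.

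Slc1a2 (GLT-1, at chr3:89005129-89122959 of mRatBN7.2, + strand), the main glutamate transporter of astrocytes, was at 24.6, 26.3 and 17.7 CPM in Sham rats 1 to 3, at 9.08, 6.57 and 7.15 CPM in SCI rats and at 9.12, 14.4 and 12.5 CPM in SCI + SCS rats. Every injured rat lay below every Sham rat, with or without stimulation. The log2FC of SCI against Sham was -1.61 ± 0.21 (SE), a 3.05-fold lower level (adjusted p = 0.00219), and it passed under all 16 alternatives tried. Slc1a3 (GLAST), the other astrocyte glutamate transporter, was at 136 to 152 CPM in Sham and 79.9 to 86.7 CPM in SCI rats, with a log2FC of -0.79 ± 0.10 (adjusted p = 0.00199). The SCI rats were close to each other and well apart from the Sham rats. The part of the smaller neuron and oligodendrocyte sums in these 2 decreases was not tested.

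Aldoc was at 2048, 1703 and 1602 CPM in Sham and at 1353, 995 and 826 CPM in SCI rats. The groups did not overlap, and the log2FC was -0.77 ± 0.22 (adjusted p = 0.0257). This call was lost without Sham rat 1, Sham rat 2, SCI rat 2 or SCI rat 3, where the adjusted p was 0.0635, 0.0642, 0.0838 and 0.0674, in that order. Gjb6 (connexin 30), a gap junction subunit of astrocytes, went the other way, with 77.8, 71.7 and 87.6 CPM in Sham and 118, 111 and 135 CPM in SCI rats. Its log2FC was 0.60 ± 0.12 (adjusted p = 0.00703), and it passed under all 16 alternatives.

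The remaining homeostatic genes overlapped between the 2 groups. Aqp4, the water channel of astrocyte end-feet, was at 1087 to 1653 CPM in Sham and 763 to 1197 CPM in SCI rats, with a log2FC of -0.58 ± 0.23 (adjusted p = 0.074). It passed without Sham rat 1 (adjusted p = 0.0429) and without SCI rat 1 (adjusted p = 0.0341), and in DESeq2 (adjusted p = 0.0322). Aldh1l1, a folate enzyme used as an astrocyte marker, had a log2FC of -0.53 ± 0.27 and passed without Sham rat 1 (adjusted p = 0.0476). S100b had a log2FC of -0.42 ± 0.21 (95% confidence interval -0.93 to 0.09). Glul had a log2FC of 0.24 ± 0.15 and Gja1 (connexin 43), the other main gap junction subunit, of 0.17 ± 0.17. Sox9, a transcription factor of astrocyte identity, was at 15.2 to 20.2 CPM in Sham and 12.2 to 22.2 CPM in SCI rats, with a log2FC of -0.06 ± 0.24 whose sign turned when SCI rat 3 was left out (0.15) or Sham rat 3 (0.01).

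**Figure D3:**
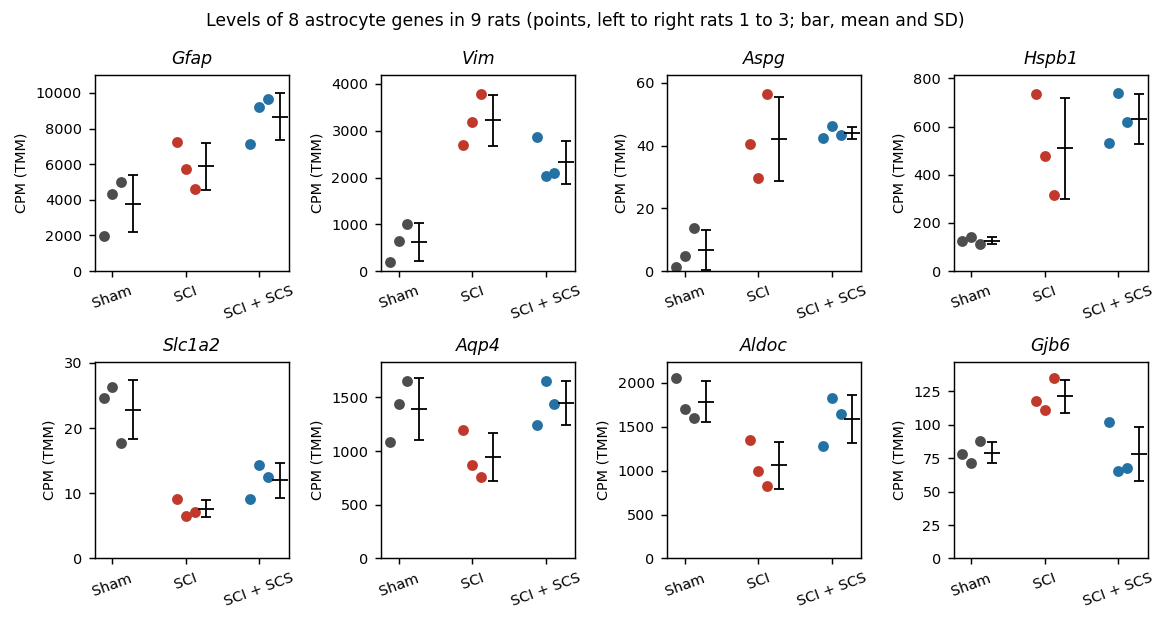
CPM of 8 members (vertical axes, starting at 0) in the 9 rats; points are rats 1 to 3 from left to right in each group, and bars give the mean and SD of 3 rats. Gfap is highest on average in the SCI + SCS rats, Vim, Aspg and Hspb1 are higher in every injured rat than in every Sham rat, Slc1a2 is lower in every injured rat, and Aqp4, Aldoc and Gjb6 lie on average nearer to Sham in the SCI + SCS rats than in the SCI rats.

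The reactive genes were higher as a group in SCI than in Sham rats. Of the 25 tested, 19 rose and 0 fell, and 6 did not pass (Gfap, Fkbp5, Amigo2, Emp1, Ptgs2 and Tgm1). Among all genes tested 24.3% passed higher. In all, 16 of the 25 were also changed by over 1 on the log2 scale, which 13.4% of all genes were in this direction, and the libraries of 21 did not overlap, which held for 32.5% of all genes in this direction. The median log2FC was 1.38, with a range of -0.51 to 3.01. Fibroblast and microglia and macrophage markers rose in the same rats, with 8 of 8 and 7 of 11 genes that passed, and their part in the change of the reactive genes was not tested. Sham rat 1 had the lowest Sham level for 20 of the 25 reactive genes (80%), which held for 41.9% of all genes. Without Sham rat 1, 18 reactive genes rose. Leaving out SCI rat 3 gave the smallest count, 14. The share of all genes that passed in these fits is not given, so a loss in the members cannot be told from a loss over all genes.

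Among the intermediate filaments, Vim and Nes rose and Gfap did not pass. Gfap (chr10:87852890-87861589, - strand), the filament by which reactive astrocytes are usually stained, was at 1983, 4342 and 5008 CPM in Sham, 7244, 5758 and 4618 CPM in SCI and 7153, 9223 and 9645 CPM in SCI + SCS rats. SCI rat 3 lay below Sham rat 3, so the groups overlapped, and Sham rat 1 was far below the other Sham rats. The log2FC of SCI against Sham was 0.62 ± 0.37 (95% confidence interval -0.25 to 1.5, adjusted p = 0.195), and it passed under none of the 16 alternatives, DESeq2 included (adjusted p = 0.126). Vim (vimentin, chr17:76668647-76677187, + strand), which fibroblasts, macrophages and vessel cells also make, was at 196, 643 and 1009 CPM in Sham and at 2694, 3192 and 3784 CPM in SCI rats. Every SCI rat was above every Sham rat, with a log2FC of 2.38 ± 0.55, a 5.19-fold difference (adjusted p = 0.013). Nes (nestin), a filament of progenitors and reactive astrocytes, had a log2FC of 0.95 ± 0.20 (adjusted p = 0.00871), from 37.6 to 58.5 CPM in Sham to 76.5 to 109 CPM in SCI rats.

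The windows before the starts of Gfap and Vim are shown because these were the most abundant filament genes. The sequences are the 250 bases before the annotated start from RefSeq (GRCr8, a later build than the mRatBN7.2 of the gene positions), 5′ to 3′ on the gene's strand, with a match to the TATA letters TATAAA in capitals. The windows lie at chr10:88361662-88361911 (- strand) for Gfap and chr17:81577011-81577260 (+ strand) for Vim.
Gfap: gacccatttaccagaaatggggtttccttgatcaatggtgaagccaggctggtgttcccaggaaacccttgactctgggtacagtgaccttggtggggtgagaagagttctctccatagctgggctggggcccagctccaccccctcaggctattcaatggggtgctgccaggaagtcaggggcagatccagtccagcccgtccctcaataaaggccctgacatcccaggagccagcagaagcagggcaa
Vim: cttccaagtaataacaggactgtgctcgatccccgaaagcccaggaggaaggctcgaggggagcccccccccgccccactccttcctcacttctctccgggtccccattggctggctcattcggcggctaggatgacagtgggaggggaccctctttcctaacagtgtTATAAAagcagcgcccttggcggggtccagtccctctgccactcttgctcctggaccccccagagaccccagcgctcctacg
Vim held TATAAA 82 to 77 bases before its start, and Gfap held no match. On either strand, TATAAA was found in 12.9% of the 33469 rat windows of this length.

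The pan-reactive set rose throughout. All 7 tested members rose by over 1 on the log2 scale in SCI rats, with a median log2FC of 2.0, and their libraries did not overlap. Lcn2, a secreted iron-siderophore carrier that neutrophils and macrophages also make, was at 1.87 to 2.49 CPM in Sham and at 17.1, 10.7 and 10.1 CPM in SCI rats, 5.89-fold higher (log2FC 2.56 ± 0.27, adjusted p = 0.00143). Neutrophil markers, 8 genes, summed to 4.01 to 9.12 CPM in Sham and 15.4 to 31.5 CPM in SCI rats, and their part in Lcn2 was not tested. Hspb1, a small heat shock protein, was at 127, 140.1 and 111 CPM in Sham and at 734, 476 and 317 CPM in SCI rats. The SCI rats spread widely, and the lowest of them was still above every Sham rat (log2FC 2.0 ± 0.31, adjusted p = 0.0033).

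Osmr, the oncostatin M receptor that pairs with gp130, was at 3.59, 6.67 and 7.11 CPM in Sham and 19.8, 33.9 and 34.1 CPM in SCI rats, with a log2FC of 2.32 ± 0.33 (adjusted p = 0.0027). Aspg, an asparaginase known as a marker of reactive astrocytes, was at 1.25, 4.90 and 13.6 CPM in Sham and 40.7, 29.6 and 56.3 CPM in SCI rats. Its Sham levels differed 10.9-fold between rats 1 and 3, the widest Sham range of the 35 genes, and its log2FC was 2.66 ± 0.77 (adjusted p = 0.0282). S1pr3, a receptor for sphingosine-1-phosphate, had a log2FC of 1.16 ± 0.21 (adjusted p = 0.00555), Steap4, a metalloreductase, of 1.29 ± 0.31 (adjusted p = 0.0141), and Cd44, the hyaluronan receptor, of 1.19 ± 0.38 (adjusted p = 0.0392). The calls of Cd44, Aspg and Steap4 depended on single libraries. Cd44 was lost without Sham rat 3 or any SCI rat (adjusted p = 0.0617 to 0.101), Aspg without Sham rat 2 or any SCI rat (adjusted p = 0.0512 to 0.0952) and Steap4 without SCI rat 3 (adjusted p = 0.0513).

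Of the A2-labelled set, 8 of 11 genes rose. Ptx3, a secreted pentraxin, was at 0.45, 0.43 and 0.52 CPM in Sham and 3.73, 4.78 and 2.95 CPM in SCI rats. At 8.05-fold it had the largest log2FC of the 35 members, 3.01 ± 0.28 (adjusted p = 0.00125). Sphk1, the kinase that makes the ligand of S1pr3, was at 2.27, 5.49 and 5.14 CPM in Sham and 18.2, 23.3 and 40.3 CPM in SCI rats (log2FC 2.64 ± 0.43, adjusted p = 0.00396). The enzyme and the receptor of sphingosine-1-phosphate were thus both higher in every SCI rat than in every Sham rat. Cd109, a membrane protein that binds transforming growth factor-β, had a log2FC of 2.58 ± 0.29, Clcf1, a cytokine acting through gp130, of 2.53 ± 0.34, and Slc10a6, a steroid sulfate transporter, of 2.36 ± 0.24. S100a10, the partner of annexin A2, had a log2FC of 1.58 ± 0.21, Tm4sf1, a membrane protein also of vessels, of 1.38 ± 0.24, and B3gnt5, a glycosyltransferase, of 1.08 ± 0.36 (adjusted p = 0.0468).

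B3gnt5 was the weakest of these calls. It was lost without Sham rat 1 or 2 or any SCI rat (adjusted p = 0.0546 to 0.144). Some settings that kept all libraries lost it as well (adjusted p = 0.0518 to 0.0544), and it passed under 7 of the 16 alternatives. Emp1, a membrane protein, was at 13.6, 42.6 and 68.0 CPM in Sham and 78.8, 114 and 174 CPM in SCI rats, and did not pass although the groups did not overlap (log2FC 1.55 ± 0.57, adjusted p = 0.0602). It passed without Sham rat 3 (adjusted p = 0.0309) and in DESeq2 (adjusted p = 0.00657). Tgm1 had a log2FC of 1.10 ± 0.44 (adjusted p = 0.0785) and Ptgs2, cyclooxygenase 2, of 0.24 ± 0.33 (95% confidence interval -0.56 to 1.03).

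Of the A1-labelled set, 1 of 3 genes rose. This was Srgn, a proteoglycan that immune cells also store in granules, at 25.2 to 35.0 CPM in Sham and 49.0 to 52.4 CPM in SCI rats (log2FC 0.78 ± 0.13, adjusted p = 0.00464). Fkbp5, a co-chaperone induced by glucocorticoids, ranged from 59.7 to 188 CPM among the SCI rats and from 39.4 to 83.0 CPM in Sham, with a log2FC of 1.0 ± 0.45 (adjusted p = 0.108). It passed without SCI rat 2 (adjusted p = 0.0473) and in DESeq2 (adjusted p = 0.0421). Amigo2, an adhesion molecule also of neurons, was the single reactive gene with a negative log2FC, -0.51 ± 0.32, at 3.78 to 8.18 CPM in Sham and 3.61 to 5.05 CPM in SCI rats. It passed lower without Sham rat 3 (adjusted p = 0.0326). With 3 and 11 genes, the 2 sets were not tested against each other.

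Stat3, the transcription factor of the pathway, was at 71.1, 101 and 91.4 CPM in Sham and 122, 133 and 132 CPM in SCI rats. The increase was small and the groups did not overlap (log2FC 0.54 ± 0.14, adjusted p = 0.0199). It was lost without SCI rat 2 (adjusted p = 0.0636) or SCI rat 3 (adjusted p = 0.0628). Other genes of the gp130-STAT3 pathway, from a list of 22 of which 20 were tested, gave 11 that rose and 1 that fell, beside 24.3% and 25% of all genes, with a median log2FC of 0.66. Osm, the ligand of Osmr, rose from 0.523 to 1.71 CPM (log2FC 1.69 ± 0.32, adjusted p = 0.00652), and Il6st, which encodes gp130 itself, rose from 187 to 315 CPM (log2FC 0.74 ± 0.14, adjusted p = 0.0069). The kinase Tyk2 (log2FC 0.83 ± 0.13) and the phosphatase Ptpn2 (log2FC 1.04 ± 0.09) also rose. The phosphatase Ptpn11 (SHP2) was the gene that fell, from 463 to 223 CPM (log2FC -1.07 ± 0.20, adjusted p = 0.00599).

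The promoter windows of members were searched for a STAT letter pattern, since Stat3 and the receptor genes Osmr and Il6st were among the genes that rose. The pattern TTCNNNGAA, searched on both strands, was found in 7.67% of all windows and in 4 of the 40 windows of the 32 members that RefSeq listed. These belonged to Emp1, Serpina3n, Sphk1 and Steap4. The AP-1 pattern TGANTCA was found in 6.34% of all windows and in 4 windows of members, those of Aspg, Emp1, Gja1 and Osmr. The windows of 4 of these genes are shown with both patterns in capitals, at chr4:27054770-27055019 (- strand) for Steap4, chr4:169943980-169944229 (+ strand) for Emp1, chr10:102258725-102258974 (+ strand) for Sphk1, which had 3 windows of which 1 held the pattern, and chr2:57688562-57688811 (- strand) for Osmr.
Steap4: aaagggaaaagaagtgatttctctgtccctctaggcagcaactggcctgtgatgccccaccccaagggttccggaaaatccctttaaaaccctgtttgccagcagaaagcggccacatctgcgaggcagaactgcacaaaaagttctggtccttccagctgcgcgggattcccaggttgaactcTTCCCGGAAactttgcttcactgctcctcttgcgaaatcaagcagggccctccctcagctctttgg
Emp1: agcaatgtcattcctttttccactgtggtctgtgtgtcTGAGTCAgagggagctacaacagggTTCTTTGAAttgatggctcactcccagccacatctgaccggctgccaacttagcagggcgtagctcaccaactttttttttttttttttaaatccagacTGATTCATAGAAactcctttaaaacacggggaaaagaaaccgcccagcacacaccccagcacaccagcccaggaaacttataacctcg
Sphk1: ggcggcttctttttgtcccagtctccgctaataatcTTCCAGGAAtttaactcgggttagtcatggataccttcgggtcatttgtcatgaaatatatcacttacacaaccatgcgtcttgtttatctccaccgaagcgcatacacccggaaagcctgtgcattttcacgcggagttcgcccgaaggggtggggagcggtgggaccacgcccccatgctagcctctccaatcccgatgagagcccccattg
Osmr: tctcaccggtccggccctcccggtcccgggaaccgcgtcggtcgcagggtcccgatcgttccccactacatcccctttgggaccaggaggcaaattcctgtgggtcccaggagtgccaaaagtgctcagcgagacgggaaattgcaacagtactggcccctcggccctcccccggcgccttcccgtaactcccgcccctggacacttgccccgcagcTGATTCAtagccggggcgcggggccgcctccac
The STAT match lay 66 to 58 bases before the start in Steap4 and 214 to 206 bases before it in Sphk1. Emp1 held 2 STAT and 2 AP-1 matches, of which the AP-1 match at 88 to 82 bases and the STAT match at 85 to 77 bases before the start overlap and read as a single run of capitals. In Osmr the AP-1 match lay 33 to 27 bases before the start. These are matches of letters, and binding was not measured.

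**Figure D4:**
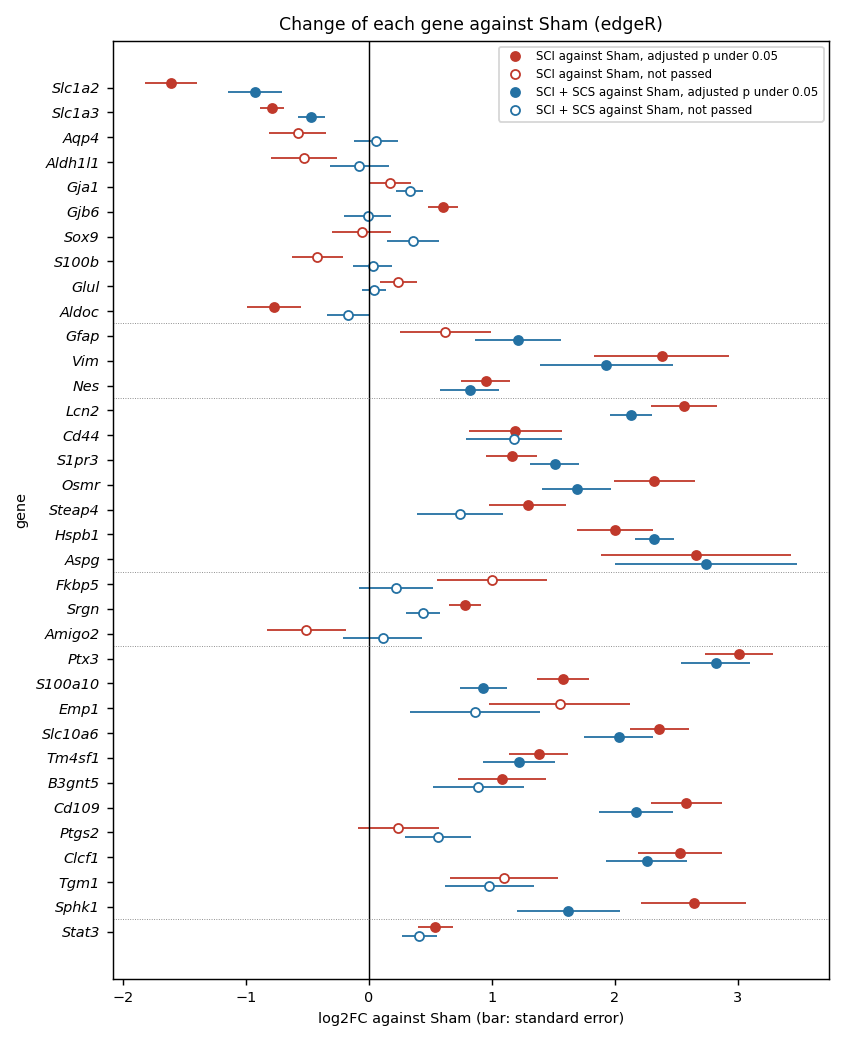
log2FC against Sham (horizontal axis) of the 35 tested members in SCI rats (red) and SCI + SCS rats (blue), which share the 3 Sham libraries; bars are standard errors of edgeR fits, and filled points passed at an adjusted p under 0.05. Most reactive members lie to the right of 0 in both comparisons, and Slc1a2 and Slc1a3 lie to the left in both.

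Stimulated rats were then compared with injured rats without stimulation. None of the 35 members passed in SCI + SCS against SCI by edgeR's quasi-likelihood test, and 0.00566% of the 17663 genes tested passed higher and 0% lower. At an unadjusted p under 0.05, 7 members were higher and 6 were lower in the SCI + SCS group, against 13.3% and 10.9% of all genes. DESeq2 called 4 higher (Slc1a2, Aqp4, Aldoc and Gfap) and 4 lower (Gjb6, Srgn, S100a10 and Sphk1) at an adjusted p under 0.05, against 8.83% and 6.9% of all genes. Of the 10 homeostatic genes 8 had a positive log2FC, with a median of 0.42, against 49.3% of all genes. Of the 25 reactive genes 19 had a negative log2FC, with a median of -0.20, against 50.7% of all genes. The median over all genes was -0.01. This comparison shares its SCI libraries with that of SCI against Sham, where they enter with the opposite sign. Reactive genes there had a positive log2FC in 24 of 25 and homeostatic genes a negative one in 7 of 10. The signs here are thus not independent of those, and the share over all genes is not a like background. The neuron and oligodendrocyte sums were higher and the fibroblast sum lower on average in the SCI + SCS rats. Their part in the log2FCs of the members was not tested.

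The homeostatic genes nearest to a difference were Gjb6, Aqp4 and Slc1a2. Gjb6 was at 102, 65.6 and 67.7 CPM in SCI + SCS rats, below every SCI rat, with a log2FC of -0.62 (95% confidence interval -1.05 to -0.19, adjusted p = 0.115). It passed without SCI + SCS rat 1 (adjusted p = 0.0499). Slc6a11, Fgfr3 and Timp1, other astrocyte genes described below, passed there at the same adjusted p. How many of all genes passed in that fit is not given, so this pass is not read as a result for Gjb6. Aqp4 was at 1197, 871 and 763 CPM in SCI and at 1243, 1653 and 1439 CPM in SCI + SCS rats, with a log2FC of 0.62 (0.16 to 1.09, adjusted p = 0.125). Slc1a2 was higher in every SCI + SCS rat than in every SCI rat, but SCI + SCS rat 1 was within 0.1 CPM of SCI rat 1 (log2FC 0.67, interval 0.17 to 1.17, adjusted p = 0.127).

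Slc1a3 did not overlap either, at 90.9 to 114 CPM in SCI + SCS and 79.9 to 86.7 CPM in SCI rats (log2FC 0.31, interval 0.06 to 0.56, adjusted p = 0.142). Aldoc had a log2FC of 0.59 (0.08 to 1.10) and S100b of 0.44 (0.02 to 0.86), with overlapping rats. The intervals of Aldh1l1 (-0.01 to 0.88), Sox9 (-0.23 to 1.03), Gja1 (-0.22 to 0.51) and Glul (-0.51 to 0.10) included 0.

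Among the filaments, Gfap and Vim had opposite signs. Gfap was 1.49-fold higher in the SCI + SCS group (log2FC 0.57, interval 0.07 to 1.07, adjusted p = 0.165), with SCI + SCS rat 1 just below SCI rat 1. Of the 16 alternatives, Gfap passed in DESeq2 only (adjusted p = 0.036). Vim was at 2856, 2031 and 2102 CPM in SCI + SCS rats, 1.37-fold lower (log2FC -0.46, interval -0.91 to -0.01, adjusted p = 0.199), with SCI + SCS rat 1 above SCI rat 1. SCI + SCS rat 1 also had the highest fibroblast sum of its group, 4047 CPM, above the 3860 CPM of SCI rat 1. Nes had a log2FC of -0.14 (-0.66 to 0.37).

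The other reactive genes with the smallest p were Srgn, S100a10, Sphk1, Amigo2 and Osmr. Srgn was at 42.3, 35.7 and 40.8 CPM in SCI + SCS rats, below every SCI rat (log2FC -0.35, interval -0.56 to -0.13, adjusted p = 0.098). S100a10 was at 252, 160.5 and 198 CPM in SCI + SCS against 293, 262 and 419 CPM in SCI rats (log2FC -0.66, interval -1.19 to -0.14, adjusted p = 0.141). Sphk1 had the largest difference, with 18.6, 12.6 and 8.32 CPM in SCI + SCS rats (log2FC -1.04, interval -1.92 to -0.16, adjusted p = 0.155), where only SCI + SCS rat 1 reached the SCI range. Osmr had a log2FC of -0.64 (-1.20 to -0.09). Amigo2 was the reactive gene whose SCI + SCS rats all lay above the SCI rats, at 5.44 to 8.28 CPM (log2FC 0.60, interval 0.08 to 1.12, adjusted p = 0.159).

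For the remaining 18 reactive genes the interval included 0. Lcn2 (log2FC -0.44, interval -0.95 to 0.07) and Clcf1 (-0.28, interval -0.65 to 0.09) were lower in every SCI + SCS rat than in every SCI rat. Fkbp5 (-0.79), Emp1 (-0.70), Steap4 (-0.56), Cd109 (-0.42), Slc10a6 (-0.34), B3gnt5 (-0.20), Ptx3 (-0.20), Tm4sf1 (-0.17), Stat3 (-0.14), Tgm1 (-0.13) and Cd44 (-0.03) had negative log2FCs with overlapping rats. S1pr3 (0.34), Hspb1 (0.32), Ptgs2 (0.31) and Aspg (0.07) had positive log2FCs. The interval was -0.35 to 0.07 for Stat3 and -0.34 to 0.29 for Cd44.

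**Figure D5:**
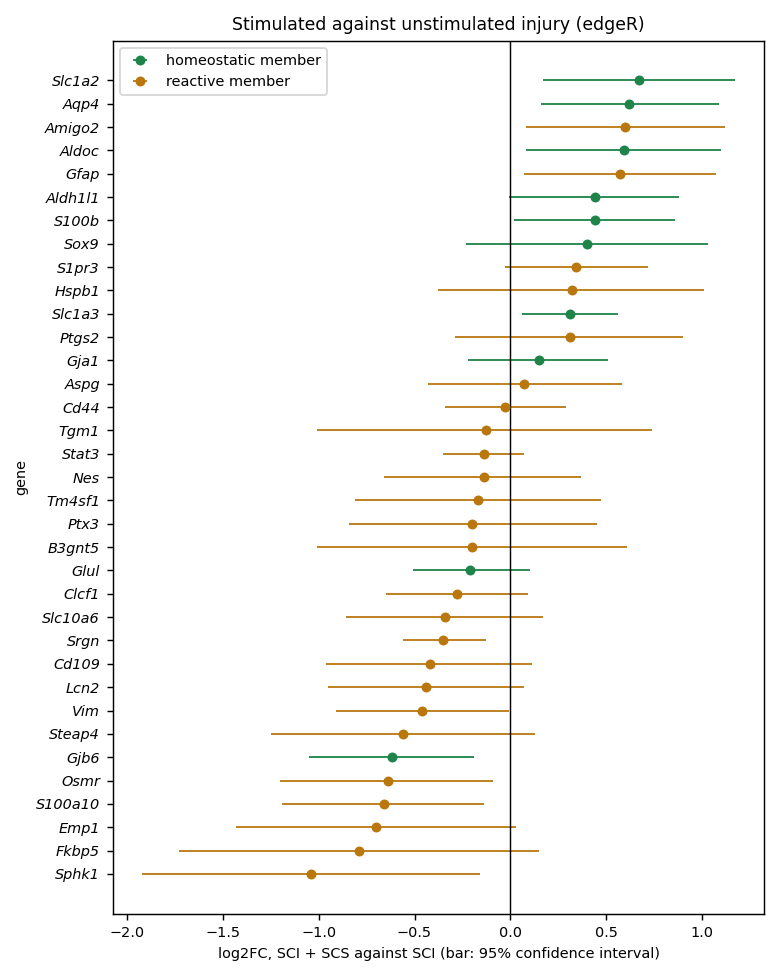
log2FC of SCI + SCS against SCI (horizontal axis) of the 35 tested members in order of size; bars are 95% confidence intervals of the edgeR fit, green marks homeostatic and orange reactive members. 8 of 10 green points lie to the right of 0 and 19 of 25 orange points to the left, and no member passed after adjustment in that fit.

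Against Sham, the stimulated rats still had higher reactive genes. In the SCI + SCS group, 15 of 25 reactive genes rose and 0 fell, against 16.2% of all 17640 genes in either direction, with a median log2FC of 1.21. This comparison shares its Sham libraries with that of SCI against Sham. The count was 9 without Sham rat 2, SCI + SCS rat 1 or SCI + SCS rat 2, fits for which the share of all genes that passed is not given either. Hspb1 (531, 738 and 620 CPM in SCI + SCS rats, log2FC 2.32 ± 0.16, adjusted p = 0.00278), Lcn2 (2.13 ± 0.17), Ptx3 (2.82 ± 0.28) and S1pr3 (1.51 ± 0.20) passed under all 16 alternatives. Clcf1 (2.26 ± 0.33), Cd109 (2.17 ± 0.30) and Slc10a6 (2.03 ± 0.28) did so too, and Osmr (1.69 ± 0.28) and S100a10 (0.93 ± 0.19) under 15 of the 16.

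Gfap passed in this comparison. Every SCI + SCS rat was above every Sham rat, 2.31-fold on average (log2FC 1.21 ± 0.35, adjusted p = 0.0396), and the call was lost without Sham rat 2 or any single SCI + SCS rat (adjusted p = 0.0811 to 0.105). That Gfap passed here and not in SCI against Sham does not show a difference between SCI and SCI + SCS. Their own comparison of Gfap did not pass by edgeR (adjusted p = 0.165) and passed in DESeq2 (adjusted p = 0.036). Vim (1.93 ± 0.54, adjusted p = 0.0381), Aspg (2.74 ± 0.74, adjusted p = 0.0338), Sphk1 (1.62 ± 0.42, adjusted p = 0.0293), Tm4sf1 (1.22 ± 0.29, adjusted p = 0.0241) and Nes (0.82 ± 0.24, adjusted p = 0.0419) also rose. Each of these was lost without some single library. For Vim and Aspg these were Sham rat 2 and each SCI + SCS rat (adjusted p = 0.0762 to 0.116), for Nes Sham rats 1 and 2 and each SCI + SCS rat (0.0579 to 0.114), for Tm4sf1 Sham rats 1 and 2 and SCI + SCS rats 1 and 2 (0.0598 to 0.0868), and for Sphk1 Sham rat 2 and SCI + SCS rats 1 and 2 (0.0657 to 0.0976).

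The 10 reactive genes that did not pass were Cd44 (log2FC 1.18 ± 0.39, adjusted p = 0.0588), B3gnt5 (0.89), Tgm1 (0.98), Emp1 (0.86), Steap4 (0.74), Ptgs2 (0.56), Srgn (0.44), Stat3 (0.41), Fkbp5 (0.22) and Amigo2 (0.11). Cd44 passed without Sham rat 1 (adjusted p = 0.018) and Srgn without Sham rat 3 (adjusted p = 0.0128). Among the homeostatic genes, 2 fell and 0 rose, against 16.2% of all genes in either direction, with a median log2FC of 0.01. These were again Slc1a2 (-0.93 ± 0.22, adjusted p = 0.0234) and Slc1a3 (-0.47 ± 0.11, adjusted p = 0.0206). Both were lost without Sham rat 2 or SCI + SCS rat 1, Slc1a2 also without Sham rat 1 or SCI + SCS rat 3, and Slc1a3 also without SCI + SCS rat 2 (adjusted p = 0.0534 to 0.0821 over the 2 genes). Gja1 had a log2FC of 0.33 ± 0.11 (adjusted p = 0.0641), and passed without Sham rat 1 (adjusted p = 0.0253) and in DESeq2 (adjusted p = 0.0399). The other 7 had log2FCs from -0.17 (Aldoc) to 0.36 (Sox9).

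The homeostatic and the reactive genes were set side by side by their median level in each rat, as the median over genes of the log2(CPM + 1) difference from that gene's mean over the 9 rats. The homeostatic median was 0.02, 0.15 and 0.25 in Sham, 0.04, -0.37 and -0.45 in SCI and -0.04, 0.27 and 0.13 in SCI + SCS rats. SCI rat 1 lay within the Sham range, and the lower SCI values were those of rats 2 and 3. The reactive median was -1.21, -0.61 and -0.51 in Sham, 0.38, 0.53 and 0.60 in SCI and 0.41, 0.37 and 0.15 in SCI + SCS rats, with every injured rat above every Sham rat and an overlap between SCI and SCI + SCS. The mean of the SCI + SCS group lay between the means of Sham and SCI for 19 of 25 reactive and 5 of 10 homeostatic genes. This describes means whose differences between SCI + SCS and SCI did not pass by edgeR. The reactive genes outside that range were Gfap, S1pr3, Hspb1, Aspg, Amigo2 and Ptgs2, and the homeostatic genes Aqp4, Gja1, Gjb6, Sox9 and S100b. The share of all genes with such a middle mean was not counted, so 19 of 25 and 5 of 10 have no background here.

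Other astrocyte genes, from lists that held no member, were counted in the same fits. Of 41 other homeostatic genes, 22 fell and 4 rose in SCI against Sham, beside 25% lower and 24.3% higher of all genes, with a median log2FC of -0.56. Among these, the GABA transporter Slc6a11 (GAT-3) fell from 41.4 to 4.14 CPM (log2FC -3.34 ± 0.38, adjusted p = 0.00169), the potassium channel Kcnj10 (Kir4.1) from 520.2 to 139 CPM (-1.92 ± 0.20, adjusted p = 0.00143), the endothelin receptor Ednrb from 23.2 to 6.13 CPM (-1.94 ± 0.22) and the phagocytic receptor Megf10 from 53.6 to 13.99 CPM (-1.95 ± 0.22). Fgfr3, a growth factor receptor, fell as well (-1.44 ± 0.18). None of the 41 passed in SCI + SCS against SCI by edgeR. At an unadjusted p under 0.05, 23 were higher and 1 was lower, beside 13.3% and 10.9% of all genes, and the median log2FC was 0.55. DESeq2 called 17 higher and 1 lower, beside 8.83% and 6.9% of all genes. The SCI libraries also enter SCI against Sham, with the opposite sign, so these shares over all genes are not a like background. The neuron and oligodendrocyte sums were higher on average in the SCI + SCS rats, and their part here was not tested. The smallest p belonged to Slc25a18, a mitochondrial glutamate carrier (log2FC 0.85, interval 0.44 to 1.27, adjusted p = 0.08), followed by Slc6a11 (1.52, interval 0.72 to 2.32, adjusted p = 0.0866), Fgfr3 (0.83, interval 0.33 to 1.33) and Gpr37l1, an astrocyte receptor (0.55, interval 0.22 to 0.88). Of the 41, 10 fell and 7 rose in SCI + SCS against Sham, beside 16.2% of all genes in either direction.

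Of 31 other reactive genes, 21 rose and 1 fell in SCI against Sham, beside 24.3% higher and 25% lower of all genes, with a median log2FC of 1.67. Timp1, an inhibitor of matrix proteases, rose from 17.5 to 202 CPM (log2FC 3.51 ± 0.41, adjusted p = 0.00177), the metallothionein Mt1 from 5.10 to 55.2 CPM (3.42 ± 0.47), the immunoproteasome subunit Psmb8 from 11.8 to 69.0 CPM (2.54 ± 0.32), and Tgfb1, the cytokine transforming growth factor-β1, from 17.2 to 84.9 CPM (2.29 ± 0.28). Lgals1 (galectin 1) and Sbno2, a regulator induced by STAT3, rose by 1.67 ± 0.21 and 1.65 ± 0.13 on the log2 scale. After stimulation none of the 31 passed against SCI by edgeR, 14 were lower and 1 higher at an unadjusted p under 0.05 (10.9% and 13.3% of all genes), and DESeq2 called 12 lower and 1 higher (6.9% and 8.83%). These shares are again not a like background, because the same SCI libraries enter SCI against Sham with the opposite sign. Timp1 had a log2FC of -0.75 (-1.09 to -0.42, adjusted p = 0.0774), Psmb8 of -1.05 (-1.57 to -0.53), the complement inhibitor Serping1 of -0.74 (-1.11 to -0.37) and the endotoxin receptor Cd14 of -0.62 (-0.95 to -0.29). Of the 31, 18 rose and 0 fell in SCI + SCS against Sham, beside 16.2% of all genes in either direction. Several of these genes are also used by macrophages and fibroblasts, whose sums are given above, and the part of those cells was not tested.

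In the gp130-STAT3 pathway, none of 19 genes passed in SCI + SCS against SCI by edgeR, with 5 lower and 1 higher at an unadjusted p under 0.05 (10.9% and 13.3% of all genes) and 1 lower in DESeq2 (6.9%). The shared SCI libraries limit these shares as a background here as well. The gene called by DESeq2 was Socs3, the feedback inhibitor of the pathway, with a log2FC of -0.59 (interval -1.06 to -0.13, adjusted p = 0.137). Cntfr, a receptor subunit for Clcf1 and related cytokines, was the gene that was higher, with a log2FC of 0.29 (0.07 to 0.52, adjusted p = 0.135), and Tyk2 had a log2FC of -0.24 (-0.45 to -0.03). Against Sham, 9 of 20 rose and 1 fell in the SCI + SCS group, beside 16.2% of all genes in either direction.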

How the data were processed

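Libraries of whole rat spinal cord from 3 groups of 3 rats were assigned to groups by the labels. mRNA captured on oligo(dT) beads was read as paired ends by the authors, whose processing notes name fastp 0.23.2, HISAT2 2.2.1 and the build mRatBN7.2. The counting program was not given in the sources used here. The authors deposited raw counts per gene, and FPKM, which scale these counts by gene length and by the library's total. Of 30507 rows, 4340 carried no symbol. Some identifiers stood on several rows (1081 rows), none of them a member.

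The 6 libraries of each comparison were tested by edgeR 4.0.16 in R 4.3.3, with TMM scaling, the default filter, a quasi-likelihood test and Benjamini-Hochberg adjustment. Standard errors were |log2FC| over the root of F. CPM were TMM-normalized over 9 libraries. The alternatives were DESeq2 1.42.0, its size factors, other filters, all libraries in 1 fit, a replicate block, muscle and adipocyte genes removed, repeated rows summed, each library left out, and limma 3.58.1 on log2(FPKM + 1) and log2(FPKM + 0.1) for genes with a mean of at least 0.1 FPKM, a scale that understates changes of low genes. The tests were tested on simulated data. The study's methods name DESeq2 with |log2FC|>1.

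The members and gene lists were chosen with earlier results of these data known. Every member is named, and of each other list at most 6 genes with the smallest p in SCI against Sham and at most 4 in SCI + SCS against SCI. Not every gene so chosen is reported here. The detection floors cover counting error only, while the intervals of edgeR include the spread between rats. Rats were separate animals. An exact permutation test of 3 against 3 rats cannot go below p = 0.1.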

Additional observations from a re-analysis of the deposited data

How the results depend on the processing

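With 3 rats a group, the counts of calls moved with the tool and the library left out. For fits with a library left out or a replicate block, the share of all genes that passed is not given. Their counts thus have no background here. In SCI against Sham, leaving out each library gave 14 to 19 reactive genes that rose and 0 to 1 that fell (Amigo2, without Sham rat 3), and 2 to 4 homeostatic genes that fell with 1 that rose each time. Requiring |log2FC| above 1 left 1 homeostatic gene lower and 0 higher there, and 0 lower in SCI + SCS against Sham. In SCI + SCS against SCI, DESeq2 gave 3 homeostatic genes higher and 1 lower, and 1 reactive gene higher and 3 lower, where edgeR gave 0, and leaving out each library gave 0 to 1 homeostatic genes lower and 0 in the other 3 counts. In SCI + SCS against Sham, 1 homeostatic gene was higher in DESeq2 and with both FPKM pseudocounts, and leaving out each library gave 9 to 16 reactive genes higher, 0 to 2 homeostatic genes lower and 0 to 1 higher. Same-numbered rats were different animals, and the correlations of their deviations from the group means ran from -0.361 to 0.27. A fit with the replicate number as a replicate block gave 7 reactive genes higher and 0 homeostatic genes lower in SCI + SCS against Sham, and moved no other count of calls by over 1.5 times. Without a hand-chosen list of members known from other cell types, the reactive median level in SCI rats was 0.35 in place of 0.50. It was 0.30 in place of 0.31 in SCI + SCS rats and -0.59 in place of -0.78 in Sham rats. SCI and SCI + SCS thus lay nearer to each other than with all reactive members. Amigo2, also of neurons, was kept, so these are not values for genes restricted to astrocytes.

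Signs turned for genes that passed in neither setting. In SCI against Sham with a library left out, log2FCs ran from 0.00 to 0.51 for Ptgs2, -0.01 to 0.27 for Gja1 and -0.24 to 0.15 for Sox9 (0.01 without Sham rat 3). In SCI + SCS against SCI they ran from -0.14 to 0.08 for Cd44 (0.00 with both FPKM pseudocounts, 0.01 without SCI rat 2 and 0.00 without SCI rat 3), -0.14 to 0.33 for Aspg, -0.39 to 0.06 for Tm4sf1 (0.01 without SCI rat 3), -0.45 to 0.12 for B3gnt5 (0.05 without SCI + SCS rat 2) and -0.32 to 0.23 for Tgm1. In SCI + SCS against Sham they ran from -0.16 to 0.32 for Amigo2 (-0.05 without SCI + SCS rat 2), -0.09 to 0.19 for Aqp4 (-0.06 without SCI + SCS rat 2), -0.29 to 0.18 for Aldh1l1 (0.03 without SCI + SCS rat 1), -0.24 to 0.10 for Gjb6 (0.01 and 0.00 with FPKM pseudocounts of 1 and 0.1, 0.07 without Sham rat 3 and 0.08 without SCI + SCS rat 3) and -0.08 to 0.16 for S100b (-0.02 and -0.01 without SCI + SCS rats 2 and 3). The cause was not tested.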
